A study of Mus musculus with 15 samples.

Results

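Expression of 10 genes of the epithelial-mesenchymal transition (EMT) was followed in treated mouse mammospheres. They are the transcription factor genes Twist1, Twist2, Zeb1, Zeb2, Snai1 and Snai2, the mesenchymal genes Vim and Fn1, and the cadherin genes Cdh1 and Cdh2. The genes were chosen by symbol, and the platform annotation gave 22 probe sets for all 10, out of 18193 genes measured. Mammospheres are floating clusters of mammary cells that are kept from attaching. These came from primary tumours of the mammary gland in FVB/N mice and grew for 7 days before a treatment of 24 h. Every group, the vehicle controls included, carries the genotype written WAPCre-DNbcatn;HGF. In that name WAPCre is a Cre recombinase under the promoter of the milk protein gene Wap, which is active in secretory mammary epithelium, and HGF is the ligand of the MET receptor. The arrays fall into 2 sets by a code in their titles. The JAH set holds 3 arrays each of DMSO (the vehicle), PHA and ICG, and the JHO set holds 3 arrays each of DMSO and PHA+ICG. The series speaks of inhibitors of the MET and Wnt pathways without doses. By general knowledge rather than the labels, PHA is taken as a kinase inhibitor acting on MET, and ICG as a compound that blocks transcription driven by β-catenin.

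In an EMT, epithelial cells loosen their junctions and take on mesenchymal features. Factors of the SNAI, ZEB and TWIST families bind E-box motifs in DNA and repress epithelial genes, above all Cdh1, which encodes E-cadherin of the adherens junction. A gain of Cdh2 (N-cadherin), Vim (the intermediate filament vimentin) and Fn1 (the matrix protein fibronectin) is the usual readout, and both MET and Wnt signalling are known to feed into these factors. The same genes are also expressed by fibroblasts and other stromal cells. In bulk RNA of this kind, fewer cells of a type and less RNA per cell cannot be told apart.

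Values are log2 probe set values, on which a step of 1 is a 2-fold difference, and a gene is read at its brightest probe set. Differences are treated minus DMSO of the same set with the SE of the limma fit (n = 3 arrays per group), and a gene is called changed at a Benjamini-Hochberg adjusted p under 0.05 over all 18193 genes. Separate cultures or animals are not named for the replicates, so p-values measure the spread among these arrays alone, and that spread may be technical. Median replicate SD over all genes was 0.107 in the JAH set and 0.236 in the JHO set, and each set was fitted on its own. In the JHO set same-numbered arrays deviated together (r = 0.61, 0.36 and 0.28 across genes, which are not independent replicates). The arrays numbered 2 and 3 also did so across numbers (r = 0.24 and 0.35), so only the pair numbered 1 stood apart. For the 10 genes, fits with the same-numbered arrays as pairs in a block are given where they change a call. Markers of several cell types were present in the vehicle spheres. In the JAH set the epithelial genes Epcam, Krt8 and Krt14 averaged 9.42, 9.74 and 11.07, the fibroblast genes Dcn and Pdgfra 14.25 and 11.30, and the leukocyte genes Lyz2 and Ptprc 14.51 and 10.94. As a scale for dim signals, 17 genes that belong to other tissues had a median of 4.78 and a highest value of 6.83 (Ins2). Other markers of the same cell types were within that range in the JAH DMSO spheres. Among them were the epithelial genes Trp63, Elf5 and Krt19 (4.38, 5.10 and 5.36) and the fibroblast genes Dpt and Fap (5.71 and 6.22). The lymphocyte genes Cd3g and Cd79a were at 4.00 and 5.10. Of 10 endothelial markers, Pecam1, Tek, Tie1 and Emcn were below 4.78 in every group, while Kdr and Vwf exceeded 6.83 in the JAH DMSO spheres, at 7.30 and 7.47, and Egfl7 in the JHO DMSO spheres, at 7.36.

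Promoter sequence from RefSeq (build GRCm38.p6) was at hand for 5 of the 10 genes: Twist1, Twist2, Zeb2, Snai1 and Vim. The 250 bases before the start site are shown for Twist1 and Twist2, close relatives that moved in opposite directions with PHA, and for Snai1, which fell with ICG. Capitals mark the E-box CANNTG, searched on both strands.
Twist1 (chr12:33957421-33957670, plus strand): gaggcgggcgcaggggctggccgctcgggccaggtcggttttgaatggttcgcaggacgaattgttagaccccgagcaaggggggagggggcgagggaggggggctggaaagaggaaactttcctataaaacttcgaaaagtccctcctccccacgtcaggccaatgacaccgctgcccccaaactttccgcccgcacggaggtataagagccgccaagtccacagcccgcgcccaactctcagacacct
Twist2 (chr1:91801211-91801460, plus strand): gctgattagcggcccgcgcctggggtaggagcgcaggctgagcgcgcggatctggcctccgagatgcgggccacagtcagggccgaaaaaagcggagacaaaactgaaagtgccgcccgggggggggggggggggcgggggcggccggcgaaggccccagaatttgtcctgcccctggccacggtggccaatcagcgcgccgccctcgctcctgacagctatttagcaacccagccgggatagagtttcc
Snai1 (chr2:167537945-167538194, plus strand): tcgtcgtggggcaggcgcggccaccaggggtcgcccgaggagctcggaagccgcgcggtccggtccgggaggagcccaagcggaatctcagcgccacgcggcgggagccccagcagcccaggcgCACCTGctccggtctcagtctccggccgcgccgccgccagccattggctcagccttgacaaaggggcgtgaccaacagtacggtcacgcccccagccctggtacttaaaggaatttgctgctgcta
Snai1 was the one gene of the 5 with a match, a CACCTG that starts 126 bases before the start site and is also the reverse strand of CAGGTG, the E-box letters that the SNAI and ZEB factors prefer. CANNTG occurs in 66.2% of all 32841 promoter windows of this length, and CAGGTG, whose matches are all CANNTG matches too, in 17.2%. The letters CTTTGA, the core of the site bound by the TCF factors that work with β-catenin, occur in 13.8% of windows and were not in these windows of the 5 genes (4 start sites for Zeb2). A match describes the letters in the window and is not a site of binding.

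**Figure D1:**
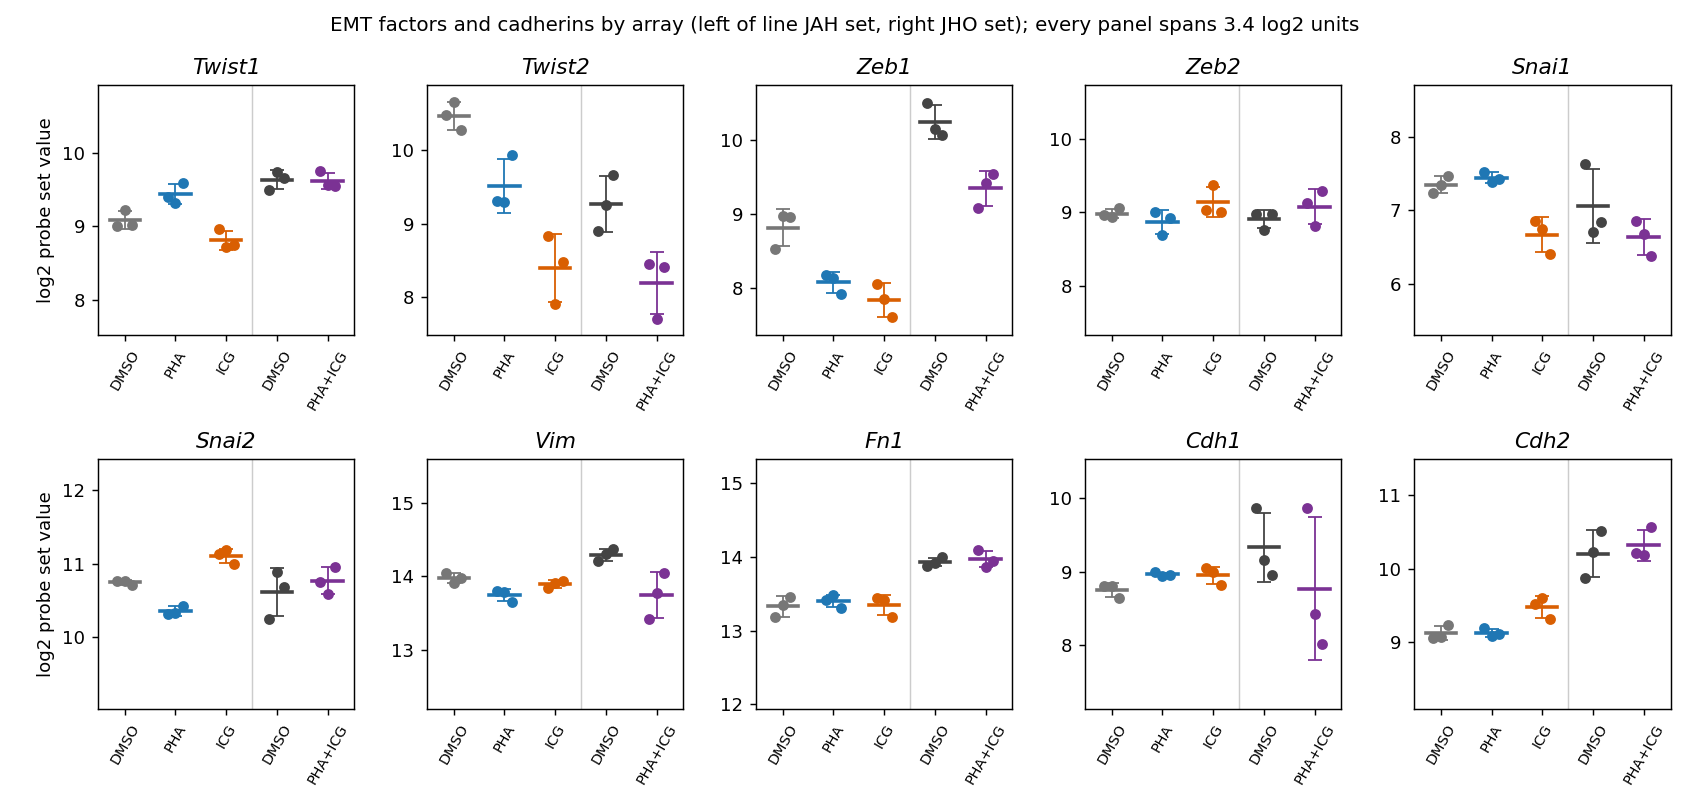
Log2 probe set value of each of the 10 genes on every array, with replicates 1 to 3 from left to right in a group, group means as horizontal bars and SD as error bars. Twist2 and Zeb1 sit lower in all treated groups than in the DMSO arrays of their set, Fn1 differs between the sets more than between treatments, and Cdh1 spreads widely in the JHO set.

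With PHA, Twist2, Zeb1 and Snai2 fell and Twist1 rose, so 3 of the 10 genes were lower, where 7.07% of all genes were called lower, and 1 was higher, where 3.14% were. With ICG, Twist2, Zeb1 and Snai1 fell and Snai2 and Cdh2 rose, 3 lower against a background of 15% and 2 higher against 11.9%. Between the inhibitors, Twist1, Twist2 and Snai1 were higher with PHA than with ICG (background 13.7%) and Snai2 and Cdh2 were lower (background 13.4%). With PHA+ICG none of the 10 passed in either direction, against backgrounds of 0.478% higher and 1.54% lower, while 3 had an unadjusted limma p under 0.05, Twist2, Zeb1 and Vim, all lower, where 8.95% of all genes were lower at that threshold.

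Twist2 encodes a basic helix-loop-helix factor of mesenchymal cells, also known as Dermo1. Its values were 10.47, 10.65 and 10.27 on the JAH DMSO arrays, 9.31, 9.30 and 9.93 with PHA and 8.83, 7.90 and 8.47 with ICG. All PHA arrays lay below all DMSO arrays, and all ICG arrays below all PHA arrays. Twist2 differed from DMSO by −2.06 ± 0.23 with ICG, a 4.18-fold fall (limma adjusted p = 0.000167), and by −0.95 ± 0.23 with PHA (adjusted p = 0.0296). The call with PHA was lost without any one of PHA replicates 1 and 2 or DMSO replicates 1, 2 and 3, with adjusted p between 0.0508 and 0.106, and with a trended robust prior (adjusted p = 0.0824). It was also lost with the same-numbered arrays as a block (limma adjusted p = 0.0535). The PHA and ICG arrays differed by 1.11 ± 0.23 (adjusted p = 0.00544). Among the JHO arrays Twist2 was at 8.90, 9.25 and 9.66 with DMSO and at 8.46, 7.71 and 8.41 with PHA+ICG, again without overlap. That difference of −1.08 ± 0.27 missed the threshold (adjusted p = 0.0961) and passed with the pairs as a block (adjusted p = 0.0118), where 6.01% of all genes were called lower. Without the pair numbered 1, left out after the data were seen, it was −1.39 ± 0.26 (adjusted p = 0.0206).

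Twist1 encodes a closely related factor, and its pattern was unlike that of Twist2. It was at 9.00, 9.22 and 9.01 with DMSO, 9.39, 9.32 and 9.59 with PHA, and 8.96, 8.72 and 8.74 with ICG. The 3 groups did not overlap, with PHA at the top and ICG at the bottom. The rise with PHA was 0.35 ± 0.10 (adjusted p = 0.0485) and was lost when any array but DMSO replicate 2 was left out, with median centring (adjusted p = 0.0569), and when every probe set was tested (adjusted p = 0.0821). The same-numbered arrays as a block also lost it (limma adjusted p = 0.105). The ICG difference of −0.27 ± 0.10 did not pass (adjusted p = 0.0644, or 0.0357 without ICG replicate 1), while PHA against ICG differed by 0.63 ± 0.10 (adjusted p = 0.00101). With PHA+ICG the difference was −0.01 ± 0.16, with a 95% interval of −0.37 to 0.34.

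Zeb1 encodes a zinc-finger repressor of Cdh1. It was at 8.52, 8.97 and 8.95 with DMSO, 8.17, 8.13 and 7.91 with PHA, and 8.05, 7.85 and 7.60 with ICG. Both treated groups lay below DMSO and overlapped each other. Zeb1 fell by 0.74 ± 0.14 with PHA (adjusted p = 0.0102) and by 0.98 ± 0.14 with ICG (adjusted p = 0.000769), and these calls held without any single array. The PHA and ICG arrays differed by 0.24 ± 0.14 (95% interval −0.08 to 0.56), which did not pass. The JHO values were higher, 10.51, 10.16 and 10.07 with DMSO and 9.09, 9.41 and 9.54 with PHA+ICG. Their difference was −0.90 ± 0.19 (adjusted p = 0.0612), or adjusted p = 0.0190 with the pairs as a block. Without the pair numbered 1 it was −0.63 ± 0.19 (adjusted p = 0.103). Of the 3 other Zeb1 probe sets, 1446127_at moved alike, by −0.52 ± 0.28 with PHA, −0.94 ± 0.28 with ICG (adjusted p = 0.0408) and −1.02 ± 0.19 with PHA+ICG (adjusted p = 0.0450 over all 45037 probe sets), 1443005_at gave −0.35 ± 0.12, −0.16 ± 0.12 and −0.44 ± 0.18, and 1420243_at stayed near 3.08, at the dim end of the arrays.

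Zeb2, the relative of Zeb1, had 5 probe sets. The brightest was at 8.96, 8.93 and 9.05 with DMSO, 9.01, 8.69 and 8.92 with PHA, 9.04, 9.37 and 9.01 with ICG, 8.98, 8.77 and 8.98 with JHO DMSO, and 9.13, 8.81 and 9.29 with PHA+ICG. No neighbours in the order of its 5 group means were free of overlap. None of the 3 treatments moved it past the threshold, with differences of −0.11 ± 0.11, 0.16 ± 0.11 and 0.17 ± 0.18. The probe sets did not all point one way with ICG, from −0.28 ± 0.19 for 1422748_at to 0.41 ± 0.14 for 1458941_at, and with PHA all 5 were at or below 0, the lowest at −0.36 ± 0.10 for 1456389_at. That last probe set was lower with PHA than with ICG by 0.52 ± 0.10 (adjusted p = 0.00474).

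**Figure D2:**
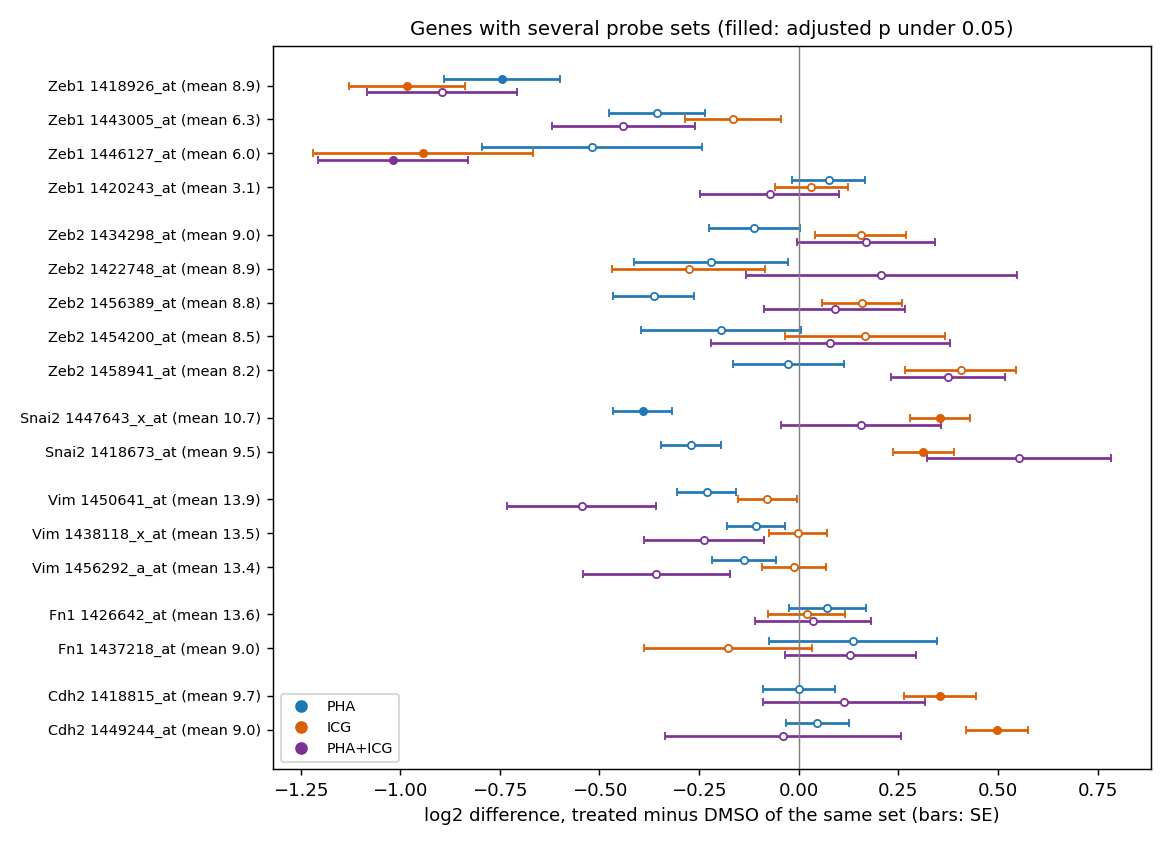
Log2 difference from DMSO of the same set (x axis, SE bars) for every probe set of the 6 genes with several, with the mean over all arrays in brackets and filled points past the threshold over 45037 probe sets. The Zeb1 probe sets lie left of 0 except the dim 1420243_at, both Snai2 probe sets split by inhibitor, and the 5 Zeb2 probe sets scatter around 0.

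Snai1 and Snai2 encode the zinc-finger factors Snail and Slug. Snai1 was at 7.24, 7.35 and 7.47 with DMSO, 7.52, 7.39 and 7.42 with PHA, and 6.85, 6.75 and 6.40 with ICG. Only the ICG arrays stood apart, lower by 0.68 ± 0.11 than DMSO (adjusted p = 0.00144), and PHA differed from DMSO by 0.09 ± 0.11. The ICG mean of 6.67 is within the range of the genes of other tissues, whose highest is 6.83. Among the JHO arrays Snai1 was at 7.63, 6.71 and 6.84 with DMSO and 6.86, 6.68 and 6.37 with PHA+ICG, and the difference of −0.42 ± 0.26 did not pass (adjusted p = 0.615).

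Snai2 moved with PHA and with ICG in opposite directions. It was at 10.76, 10.77 and 10.71 with DMSO, 10.31, 10.33 and 10.43 with PHA, and 11.13, 11.18 and 10.995 with ICG. The 3 groups did not overlap. Snai2 fell by 0.39 ± 0.07 with PHA (adjusted p = 0.00580), rose by 0.35 ± 0.07 with ICG (adjusted p = 0.00345), and differed between them by −0.75 ± 0.07 (adjusted p = 4.21e-05). Its other probe set, 1418673_at, gave −0.27 ± 0.08 with PHA (adjusted p = 0.0766) and 0.31 ± 0.08 with ICG (adjusted p = 0.0182). On the JHO arrays the brighter Snai2 probe set was at 10.25, 10.89 and 10.69 with DMSO and 10.76, 10.59 and 10.96 with PHA+ICG, a difference of 0.16 ± 0.21 with overlapping arrays. There 1418673_at was at 0.55 ± 0.23 (adjusted p = 0.413), also with overlap. Its PHA+ICG effect differed from its PHA effect by 0.82 ± 0.22 (adjusted p = 0.0740). Snai1 and Snai2 thus had differences of opposite sign with ICG, −0.68 and 0.35, as Twist1 and Twist2 had with PHA.

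Vim was among the brightest genes of the arrays, at the 99.8th percentile of gene means. It was at 14.04, 13.91 and 13.97 with DMSO, 13.80, 13.79 and 13.65 with PHA, and 13.84, 13.91 and 13.94 with ICG. The PHA arrays lay below DMSO by 0.23 ± 0.07, short of the threshold (adjusted p = 0.0578), and ICG was at −0.08 ± 0.07. The PHA difference passed with quantile normalization (adjusted p = 0.042), among genes with a mean above 5 (0.036) and with a trended robust prior (0.0031). It did not pass in the other 5 of 8 alternative runs. The JHO values of Vim were 14.21, 14.30 and 14.37 with DMSO and 13.42, 13.77 and 14.05 with PHA+ICG. The groups did not overlap, and the difference of −0.54 ± 0.19 did not pass (adjusted p = 0.241, or 0.0772 with the pairs as a block). The other Vim probe sets, 1438118_x_at and 1456292_a_at, were lower by smaller amounts with PHA+ICG, at −0.24 ± 0.15 and −0.36 ± 0.18, and also did not pass.

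Fn1, at the 99.6th percentile, did not pass in any treatment. It was at 13.18, 13.36 and 13.45 with DMSO, 13.42, 13.48 and 13.31 with PHA, and 13.44, 13.42 and 13.19 with ICG, all overlapping. The differences were 0.07 ± 0.09 with PHA (95% interval −0.14 to 0.28), 0.02 ± 0.09 with ICG (−0.19 to 0.23) and 0.04 ± 0.15 with PHA+ICG (−0.30 to 0.38). Fn1 was at 13.89, 13.92 and 14.00 on the JHO DMSO arrays and at 14.09, 13.87 and 13.95 with PHA+ICG, again overlapping. Its dimmer probe set, 1437218_at, differed from DMSO by 0.14 ± 0.21 under PHA, −0.18 ± 0.21 under ICG and 0.13 ± 0.16 under the combination, none of them called.

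Cdh1, the main target of these repressors, did not pass in any treatment. It was at 8.80, 8.80 and 8.64 with DMSO, 8.99, 8.95 and 8.95 with PHA, and 9.04, 8.99 and 8.82 with ICG. Both treated groups lay just above DMSO without overlap, by 0.21 ± 0.08 with PHA (adjusted p = 0.110) and 0.20 ± 0.08 with ICG (adjusted p = 0.0780). With quantile normalization the ICG difference was 0.25 and passed (adjusted p = 0.0273), and without ICG replicate 3 it was 0.27 and passed (adjusted p = 0.0304). On the JHO arrays Cdh1 was at 9.86, 9.16 and 8.96 with DMSO and at 9.87, 8.42 and 8.02 with PHA+ICG, so that the replicates numbered 1 were level and the others lower with PHA+ICG. The difference was −0.56 ± 0.46 (95% interval −1.61 to 0.49), and its replicate SD of 0.765 was 8.67 times that in the JAH set. Epcam, an epithelial surface marker, followed Cdh1 on these arrays, at 10.37, 9.61 and 9.77 with DMSO and 10.05, 8.59 and 8.37 with PHA+ICG, while in the JAH set it was at 9.42 with DMSO, 9.46 with PHA and 9.02 with ICG. Without the pair numbered 1, Cdh1 differed by −0.84 ± 0.21 (adjusted p = 0.0609).

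Cdh2 rose with ICG. It was at 9.06, 9.08 and 9.24 with DMSO, 9.19, 9.08 and 9.11 with PHA, and 9.52, 9.61 and 9.32 with ICG. The ICG arrays lay above the other groups, by 0.36 ± 0.09 over DMSO (adjusted p = 0.0122) and by 0.35 ± 0.09 over PHA (adjusted p = 0.0114), and PHA was at 0.00 ± 0.09 against DMSO. Its other probe set, 1449244_at, rose with ICG by 0.50 ± 0.08 (adjusted p = 0.00169). In the JHO set Cdh2 was at 9.88, 10.22 and 10.51 with DMSO and 10.21, 10.18 and 10.56 with PHA+ICG, a difference of 0.11 ± 0.21.

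**Figure D3:**
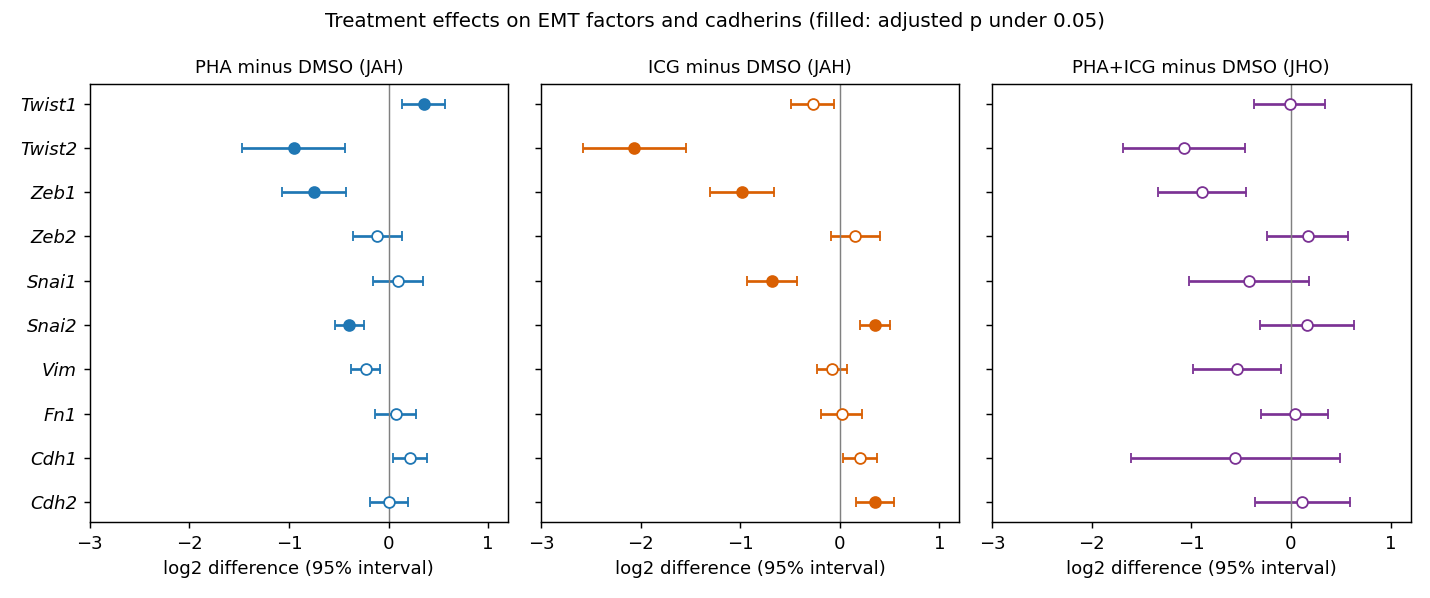
Log2 difference from DMSO of the same set with its 95% interval for each gene and treatment, filled where the adjusted p is under 0.05. Twist2 and Zeb1 lie left of 0 in all 3 panels, Snai2 changes side between PHA and ICG, and the intervals of the JHO set are wider for every gene, the widest that of Cdh1.

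Set side by side, PHA+ICG gave −1.08 for Twist2 where ICG gave −2.06 and PHA −0.95, and −0.90 for Zeb1 where ICG gave −0.98 and PHA −0.74. No gene of the 10 passed when the PHA+ICG effect was tested against that of ICG (0.385% of all genes were called) or of PHA (2.74%). At an unadjusted p under 0.05 there was 1 gene in each test, Vim against ICG (−0.47 ± 0.19) and Snai2 against PHA, near the 7.07% and 13.7% of all genes at that threshold. A fit with a separate spread per set, added after the data were seen, also called none of the 10. The intervals were wide. Twist2 differed from its ICG effect by 0.99 ± 0.53 (95% interval −0.15 to 2.12) and Snai2 from its PHA effect by 0.55 ± 0.20 (0.12 to 0.98, adjusted p = 0.199). For Cdh1 these differences became −1.31 and −1.32 and passed without PHA+ICG replicate 1 (adjusted p = 0.0408 against ICG and 0.0149 against PHA).

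Vehicle spheres of the JHO set had higher Zeb1 than those of the JAH set by 1.43 ± 0.24 (adjusted p = 0.000322), higher Cdh2 by 1.08 ± 0.16 (adjusted p = 0.000160), higher Fn1 by 0.60 ± 0.15 (adjusted p = 0.00867) and higher Twist1 by 0.55 ± 0.16 (adjusted p = 0.0213). Twist2 was lower there by −1.19 ± 0.38 (adjusted p = 0.0301). These are 4 higher and 1 lower, where 11.8% of all genes were called in each direction (2143 higher and 2140 lower, or 1960 and 2859 with quantile normalization). The same 5 were called with a separate spread per set, where 12.2% of all genes were called higher and 10.8% lower. Zeb1 and Cdh2 kept their calls without JHO DMSO replicate 2 or 3. Fn1, Twist1 and Twist2 lost theirs, with adjusted p of up to 0.0933, 0.1665 and 0.152 in turn. A fit blocked by replicate number does not estimate the difference between the vehicle groups, because each block lies within 1 set. Twist2 was also not called without JHO DMSO replicate 1 or JAH DMSO replicate 2 (adjusted p = 0.139 and 0.0576). At other probe sets, Zeb2 1454200_at was lower in the JHO set by 1.03 ± 0.31 (adjusted p = 0.0230). Vim 1438118_x_at was higher by 0.41 ± 0.12 (adjusted p = 0.0181), and the remaining Zeb2 and Vim probe sets were not called. Set, culture and array processing cannot be told apart here. Of 16 fibroblast markers 12 were higher and 1 lower in the JHO set, of 15 luminal markers 7 were higher and 0 lower, and of 17 leukocyte markers 0 were higher and 11 lower.

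Fibroblast markers moved with Zeb1 and Twist2. Of 16 such markers 9 fell and 0 rose with PHA (median −0.65, all genes 0.02), 13 fell and 0 rose with ICG (median −1.17, all genes 0.03), and 3 fell and 0 rose with PHA+ICG (median −0.69, all genes 0.00), or 9 with the pairs as a block, 6 without the pair numbered 1 and 5 with the mean of probe sets. Over all genes 7.07%, 15% and 1.54% were lower in the 3 comparisons. With the pairs as a block 6.01% were lower with PHA+ICG, and more genes were also called without the pair numbered 1, in a count given below. The share with the mean of probe sets is not given. With 1 array left out these counts ranged from 5 (without DMSO replicate 3) to 10 with PHA and from 1 (without PHA+ICG replicate 3, DMSO replicate 2 or DMSO replicate 3) to 3 with PHA+ICG. Their summed signal, as log2, ranged from 15.37 to 15.73 on the JAH DMSO arrays, 15.07 to 15.08 with PHA, 14.91 to 15.12 with ICG, 16.81 to 17.00 with JHO DMSO and 16.34 to 16.58 with PHA+ICG. Every one of the 16 was above 4.78 in at least 1 group. Zeb1 kept the order of these sums between the DMSO groups and their treated groups in both sets, while Twist2 was lower in the JHO than in the JAH DMSO arrays, where the sum was higher. Markers did not all fall: with ICG Dcn was at 14.31 against 14.25, while Col3a1 fell by 2.49 ± 0.32 and Postn fell by 2.34 ± 0.37. Of 17 leukocyte markers PHA left 5 lower, ICG left 10 lower and PHA+ICG 0, with none higher. With PHA+ICG 5 were lower at an unadjusted limma p under 0.05, where 8.95% of all genes were. The summed leukocyte signal, as log2, ranged from 15.43 to 15.63 with DMSO, 15.35 to 15.47 with PHA and 15.33 to 15.36 with ICG. Such sums are weighted to their brightest genes, such as Dcn and Lyz2. Lyz2 was at 14.51 with DMSO and 14.53 with ICG, while the median change of the leukocyte list with ICG was −0.69. The 3′ minus 5′ signal of Actb, a measure of RNA quality, was 0.447 ± 0.124 (SD, n = 3) with DMSO, 0.541 ± 0.0562 with PHA and 0.631 ± 0.0697 with ICG, and 0.590 ± 0.111 and 0.591 ± 0.161 in the JHO groups. In the JHO set the leukocyte sum was 15.20 and 14.85 on the arrays numbered 1 and between 13.14 and 13.54 on the others, and the luminal sum 14.36 and 13.91 against 11.88 to 12.996. The part of these in the changes of Zeb1, Twist2, Snai1, Snai2 and Cdh2 was not tested.

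**Figure D4:**
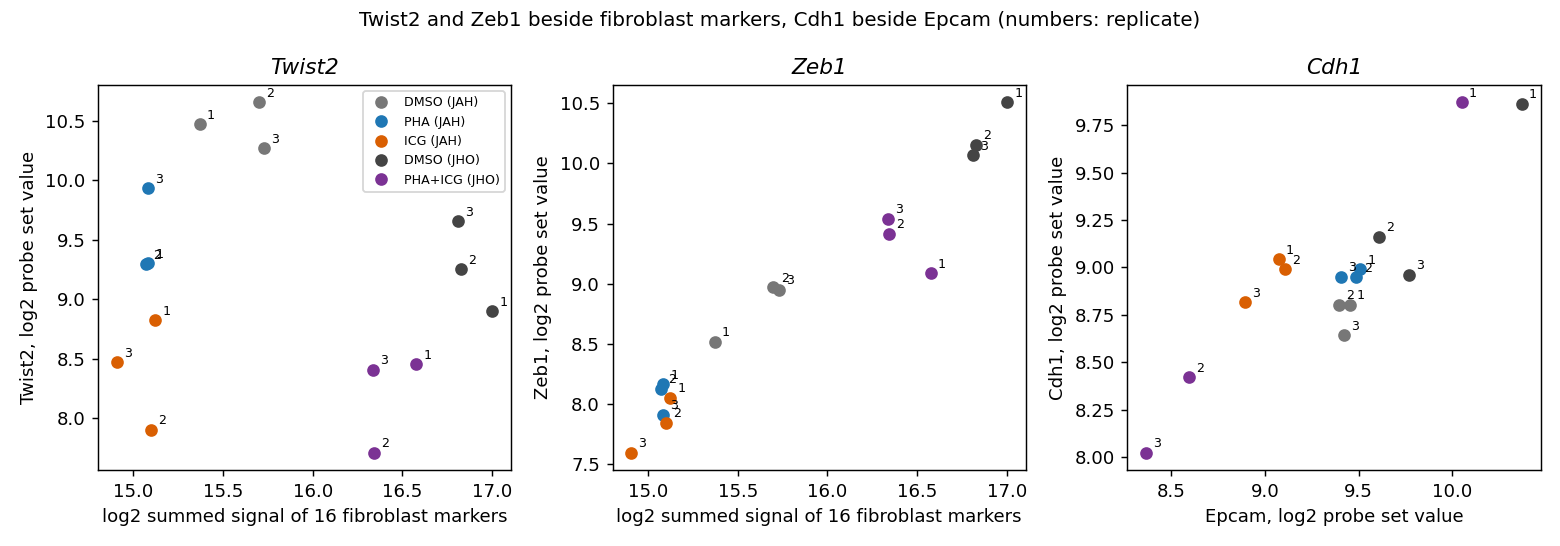
Each array's Twist2 (left) and Zeb1 (middle) against the log2 summed signal of 16 fibroblast markers, and Cdh1 (right) against Epcam, with the replicate number beside each point. Zeb1 and the fibroblast sum are both highest on the JHO DMSO arrays, Twist2 is highest on the JAH DMSO arrays, and the JHO arrays numbered 1 stand at the top of the Cdh1 panel.

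Other genes of epithelial and mesenchymal state were read from lists written with earlier results of these data known. Among 31 mesenchymal matrix and cytoskeleton genes, 23 fell and 1 rose with ICG (median −0.72), 12 fell and 1 rose with PHA (median −0.34), and 7 fell and 0 rose with PHA+ICG (median −0.56), or 15 with the pairs as a block, 9 without the pair numbered 1 and 4 with median centring. Over all genes 15%, 7.07% and 1.54% were lower in these comparisons. The block fit called 6.01% lower with PHA+ICG, and the fit without the pair numbered 1 also called more genes in all. The share with median centring is not given. Leaving out PHA replicate 2 or DMSO replicate 2 left 7 and 6 lower with PHA, and leaving out any array but DMSO replicate 1 left 2 to 4 lower with PHA+ICG. S100a4, a calcium-binding protein gene used as a mesenchymal marker, fell by 3.50 ± 0.23 with ICG, 1.09 ± 0.23 with PHA and 2.51 ± 0.23 with PHA+ICG, the PHA call being lost with a trended robust prior and without PHA replicate 1 or 2 or DMSO replicate 2 or 3. Cthrc1, a secreted collagen-associated protein gene, fell by 3.02 ± 0.29 with ICG and fell by 1.55 ± 0.29 with PHA, and Thbs1, the thrombospondin gene, fell by 2.23 ± 0.28 with PHA+ICG, a call lost without PHA+ICG replicate 3 or DMSO replicate 2. Vim and Fn1 were thus not called while most of this list fell with ICG.

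Of 15 other EMT-associated transcription factor genes, 3 fell and 0 rose with PHA, 2 fell and 2 rose with ICG, and 0 passed with PHA+ICG (medians −0.14, −0.03 and 0.03), where limma gave 1 lower at an unadjusted p under 0.05. The shares over all genes were 7.07% lower and 3.14% higher with PHA and 15% lower and 11.9% higher with ICG, so the ICG counts of this list were near the background. At that unadjusted threshold 8.95% of all genes were lower with PHA+ICG. The paired homeobox genes Prrx1 and Prrx2 fell with ICG by 0.80 ± 0.09 and 0.62 ± 0.09, and Prrx2 fell with PHA by 0.60 ± 0.09. Foxc2 and Sox4 rose with ICG by 0.71 ± 0.10 and 0.42 ± 0.07. With the mean of probe sets Prrx1 was at −0.34 with ICG, and Sox4 at 0.18, no longer called. Prrx2 and Foxc2 are dim, with means of 6.05 and 5.66 over all arrays, within the range of the genes of other tissues. Of 15 regulators of epithelial identity, 4 fell with PHA and 0 rose, 3 fell and 1 rose with ICG, and 0 passed with PHA+ICG, with 0 also at an unadjusted limma p under 0.05. Grhl3, counted among those that fell with both single inhibitors, had a mean of 4.18 over all arrays, below the median of the genes of other tissues, and its differences are not given. Klf4, a zinc-finger factor gene, fell by 0.76 ± 0.06 with PHA and rose by 0.25 ± 0.06 with ICG.

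Of 15 other cadherin and catenin genes, 3 fell and 0 rose with PHA, and 3 fell and 1 rose with ICG, with 0 past the threshold with PHA+ICG and 3 lower there at an unadjusted limma p under 0.05. With PHA these counts are to be read against 7.07% of all genes lower and 3.14% higher, and with ICG against 15% and 11.9%. At the unadjusted threshold 8.95% of all genes were lower with PHA+ICG. Cdh6 fell by 0.85 ± 0.12 with PHA and 0.83 ± 0.12 with ICG, and was at −0.86 ± 0.18 with PHA+ICG (adjusted p = 0.0573). Cdh11, the cadherin of mesenchymal cells, fell by 0.54 ± 0.08 with PHA and was at 0.11 ± 0.08 with ICG, and Ctnnb1, the β-catenin gene, rose by 0.28 ± 0.05 with ICG. With the mean of probe sets Cdh6 was at −0.50 with ICG, and Ctnnb1 at 0.10, no longer called. Of 30 tight junction and desmosome genes, 3 rose and 6 fell with PHA, 7 rose and 3 fell with ICG, and 0 passed with PHA+ICG (medians 0.01, 0.01 and −0.18), with 2 lower there at an unadjusted limma p under 0.05. All genes stood at 3.14% higher and 7.07% lower with PHA, at 11.9% and 15% with ICG, and at 8.95% lower with PHA+ICG at the unadjusted threshold. The claudin genes Cldn3 and Cldn4 rose with both single inhibitors, by 0.38 ± 0.06 and 0.49 ± 0.06 with PHA and by 0.44 ± 0.06 and 0.48 ± 0.06 with ICG. Other genes of the list went the other way. Pkp1 and Prss8 fell with PHA by 0.56 ± 0.07 and 0.46 ± 0.11, and Epcam was at 9.02 with ICG against 9.42 with DMSO. The desmocollin gene Dsc2 rose by 0.51 ± 0.07 with ICG and was lower with PHA, at −0.35, a call lost without PHA replicate 2.

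**Figure D5:**
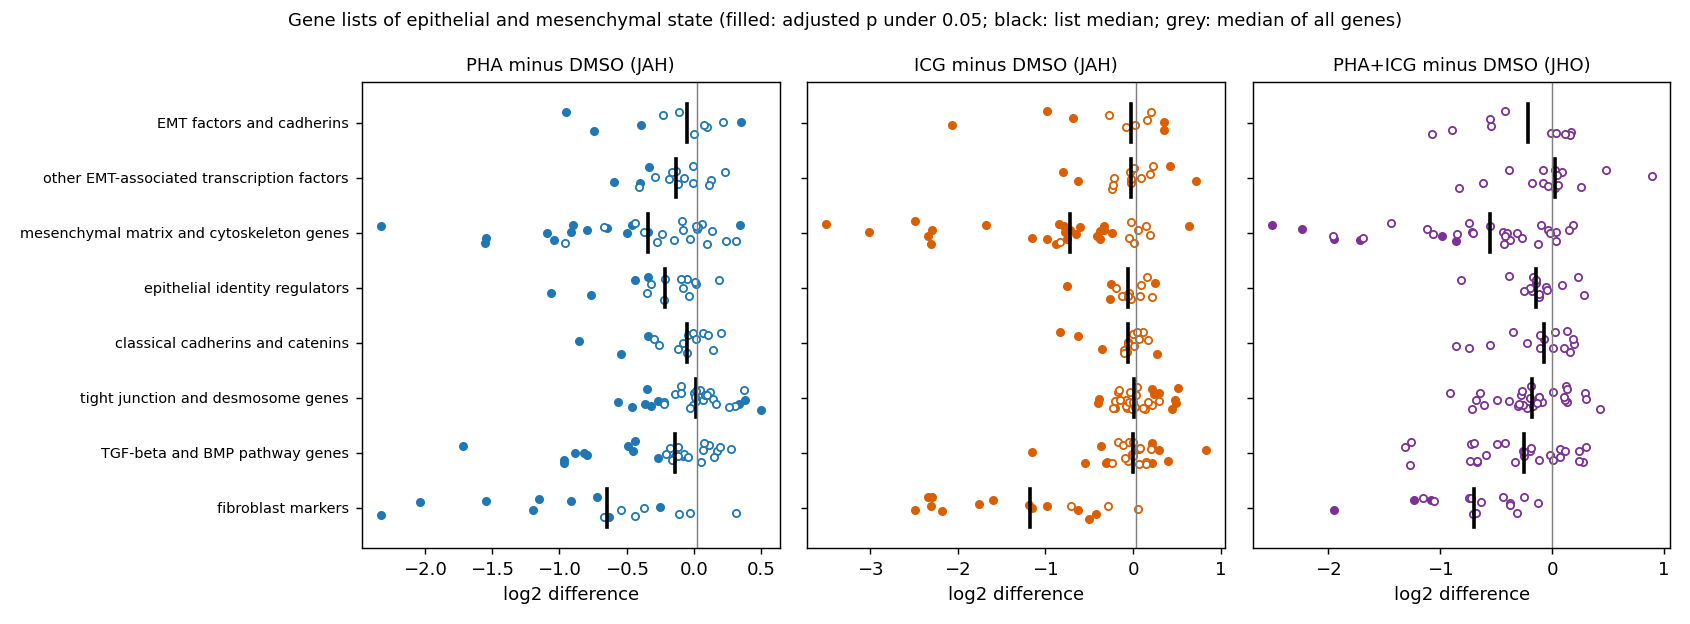
Log2 difference from DMSO of the same set for each gene of 8 lists (1 point per gene, filled past the threshold, heights jittered), with list medians in black and the median of all genes in grey. The mesenchymal matrix and fibroblast lists lie left of 0 in all panels, with medians of −0.72 and −1.17 with ICG, while the junction list centres near 0 with PHA and ICG.

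Twist2 was the one gene of the 10 called with a change of at least 1 in a treatment, so genes of similar pattern were sought for it alone. Among 13601 other genes with a mean of at least 5, the smallest root mean square differences over the 15 arrays, each taken relative to its set's DMSO mean, were those of Srpx2 (0.33), Gdf10 (0.36) and Mcm6 (0.42). With PHA, ICG and PHA+ICG in turn, mean changes were −0.72, −2.34 and −1.20 for Srpx2, a secreted sushi-repeat protein gene, −0.72, −2.19 and −1.45 for Gdf10, a growth factor gene of the TGF-β superfamily, and −0.46, −2.34 and −1.27 for Mcm6, a subunit gene of the replicative helicase.

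Over all genes limma called 1858 with PHA, of which 572 were higher and 1286 lower (826 and 1094 with quantile normalization), 4896 with ICG, 4939 between PHA and ICG, and 368 with PHA+ICG, of which 87 were higher and 281 lower (131 and 248 with quantile normalization). In a fit with 1 spread pooled over all 15 arrays, 0 of the 10 genes passed with PHA, 2 with ICG (Twist2 and Zeb1) and 3 with PHA+ICG (Twist2, Zeb1 and Vim), all lower. That fit called 1% of all genes with PHA in either direction, 4.79% lower with ICG and 8.81% lower with PHA+ICG. Of the list genes named above, with Pkp1 and Prss8 not followed here, it no longer called S100a4, Cthrc1, Prrx2, Klf4, Cdh11, Cldn3, Cldn4 and Dsc2 with PHA, nor Prrx2, Sox4, Klf4, Ctnnb1, Cldn3 and Cldn4 with ICG. It left 4 fibroblast markers and 3 matrix genes lower with PHA, 12 and 13 with ICG, and 6 and 15 with PHA+ICG.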

How the data were processed

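The study used Affymetrix mouse arrays, 1 for each of 15 samples. The deposited values are log2 probe set values. Per the submitters' processing notes RMA and MAS5 were used, with no versions or roles given; the range is that of RMA. Whether both sets were normalized together is not stated, and sorted values of the arrays differ by up to 0.367 (0.138 within the JAH set).

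Of 45101 probe sets, 64 controls were left out, 34945 had 1 gene symbol in the platform's annotation, 932 had several and 9160 none. Each gene was read at its probe set of highest mean (18193 genes). limma 3.58.1 in R 4.3.3 fitted group means to the 9 JAH arrays and the 6 JHO arrays separately, and to all 15 arrays with 1 variance per set for comparisons across sets. Adjusted p-values are Benjamini-Hochberg over all genes. Python 3.11.15 drew the figures. The fits were tested on simulated data with known changes. Fewer of these were found in the JHO set than in the JAH set, and the fits across sets made more false calls than the threshold names. A fit with a separate moderated spread per set made fewer and was added after the data were seen.

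The genes, gene lists, tests and the choice to fit the sets apart were made with earlier results of these data known. The text names all 10 genes with their probe sets, up to 4 called genes of each other list per comparison with the largest changes, and the 3 genes most like each of the 10 that changed by at least 1; other genes named as markers were chosen after their values were seen. Replicate numbers were checked for pairing by correlating deviations from group means. Same-numbered arrays correlated at 0.61, 0.36 and 0.28 in the JHO set, which were taken as pairs, and between −0.26 and 0.12 in the JAH set, which were not. JHO arrays numbered 2 and 3 correlated across numbers as well, at 0.24 and 0.35, so these values set apart number 1 alone. The number of arrays limits the precision.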

Additional observations from a re-analysis of the deposited data

How the results depend on the processing

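Of the 10 genes, Zeb1 with PHA and with ICG, Twist2, Snai1, Snai2 and Cdh2 with ICG, and Snai2 with PHA kept their calls under each alternative run except, in part, the fit with 1 spread pooled over all 15 arrays, where Twist2 and Zeb1 with ICG remained. No call of the 10 genes changed direction in any alternative. With PHA the 10 genes had 0 calls with the pooled spread and 2 with the replicate block (Zeb1 and Snai2), and from 2 to 3 when an array was left out. They had 5, Vim being added, with quantile normalization (1920 of all 18193 genes called) and among genes with a mean above 5 (2184 of 13602). With ICG they had 2 with the pooled spread and from 5 to 6 with an array left out. They had 6 with quantile normalization (5027 of all 18193 genes called) and 6 among genes with a mean above 5 (5174 of 13602). With a trended robust prior they had 7 (5329 of 18193). With PHA+ICG they had 3 with the pooled spread, 1 with the mean of probe sets (Zeb1), 2 with the replicate block (Twist2 and Zeb1), 1 without the pair numbered 1 (Twist2, chosen after seeing the data), and 0 with any single array left out. The PHA+ICG effect against that of ICG or PHA gave 0 to 1 calls with an array left out (Cdh1). The vehicle groups of the sets differed in 2 to 5 with an array left out. A separate spread per set, chosen after seeing the data, changed no call of the 10 genes across sets.

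Over all genes, the pooled spread gave 182 calls with PHA, 1255 with ICG, 1463 between PHA and ICG, 2413 with PHA+ICG, 160 for PHA+ICG against the ICG effect and 860 against the PHA effect. The replicate block gave 1202 with PHA and 1442 with PHA+ICG. Its count between vehicle groups was 2581, which cannot be read against the main count. Each block lies within 1 set, so that fit does not estimate the difference between the vehicle groups. In the JAH set same-numbered arrays share only a number. Testing every probe set gave 7451 calls with ICG, 7803 between PHA and ICG, 563 with PHA+ICG, 130 and 848 for PHA+ICG against the ICG and PHA effects, and 9726 between vehicle groups, out of more features. PHA+ICG against the ICG effect gave 42 calls among genes with a mean above 5 and 107 with a trended robust prior, and against the PHA effect 769 with quantile normalization. Without the JHO pair numbered 1, PHA+ICG gave 886. With quantile normalization 1960 genes were higher and 2859 lower between vehicle groups, and 1689 and 2716 with median centring, against 2143 and 2140. Leaving out 1 array gave 1005 to 1691 calls with PHA (1005 and 1087 without PHA replicates 2 and 1, 1062 and 1210 without DMSO replicates 2 and 3), 3696 to 4756 with ICG, 3922 to 4399 between them, 56 to 389 with PHA+ICG (56 and 67 without DMSO replicates 3 and 2, 89 and 189 without PHA+ICG replicates 3 and 2), 1 to 144 and 149 to 719 for PHA+ICG against the ICG and PHA effects, and 2442 to 4191 between vehicle groups (2442 and 2542 without JHO DMSO replicates 3 and 2). The lowest counts for PHA+ICG against the ICG and PHA effects, 1 and 149, came without JHO DMSO replicate 3. The causes of these shifts were not tested. Dim probe sets, such as that of Snai1, limit what can be read as a fall.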

Other observations

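Of 27 TGF-β and BMP pathway genes, a pathway known to induce EMT factors, 10 fell and 0 rose with PHA (median −0.14), 5 fell and 6 rose with ICG (median 0.00) and 0 passed with PHA+ICG (median −0.25), where limma gave 5 lower at an unadjusted p under 0.05. Over all genes 7.07% were lower with PHA, and 15% were lower and 11.9% higher with ICG. With PHA+ICG 8.95% of all genes were lower at that unadjusted threshold. Bmp2, a secreted ligand, fell by 1.71 ± 0.10 with PHA (limma adjusted p = 2.05e-05) and Inhba, an activin subunit gene, fell by 0.88 ± 0.07 (−0.41 with the mean of probe sets). Smad3, a signal transducer of the pathway, rose by 0.83 ± 0.06 with ICG (0.34 with the mean of probe sets), while Ltbp2, a matrix protein gene, fell by 0.97 ± 0.13 with PHA and 1.15 ± 0.13 with ICG from a dim probe set (mean 5.89).

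Of 14 basal or myoepithelial markers 7 fell and 0 rose with PHA, 5 fell and 1 rose with ICG, and 0 passed with PHA+ICG. Over all genes 7.07% were lower and 3.14% higher with PHA, and 15% and 11.9% with ICG. The keratin gene Krt17 fell by 1.62 ± 0.13 with PHA and was at −0.03 ± 0.13 with ICG, and Krt14 fell by 0.70 ± 0.10 with PHA. With the mean of probe sets they were at −0.94 and −0.42 with PHA. With 1 spread pooled over all 15 arrays, Bmp2, Inhba, Ltbp2, Krt17 and Krt14 were no longer called with PHA.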
